A study of Homo sapiens with 6 samples.

Results

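The chromosome 19 microRNA cluster, often called C19MC, was followed after heat, X-rays or both in A549, an established cell line from a human lung adenocarcinoma. Members were the genes that the array annotation names with the symbols MIR498, MIR512 or MIR515 to MIR527, suffixes included, and that lie on chromosome 19. The rule found 40 genes of the 14884 named on the array. The rule uses names and places and no measured value, though it was set with earlier results of these data known. A further 3 genes that RefSeq lists under the rule, MIR512-1, MIR515-2 and MIR520B, were not analysed here. RNA was measured on 6 arrays, 1 for each group. All cells grew for 24 h at 37 °C first. The control had no further treatment. Another group received 3 Gy of X-rays and was kept for 3 h at 37 °C. Heated cells spent 1 h at 41.5 °C or at 44 °C and then 3 h at 37 °C. The last pair of groups had the same heating and, straight afterwards, 3 Gy of X-rays, and no time between treatment and harvest is stated for them. No time after the first 24 h is stated for the control, so time in culture and treatment cannot be told apart in a difference from it. The labels do not say whether each array had its own culture. P-values therefore reflect the spread of the 6 arrays around a fitted model, together with that of other genes. Part or all of this spread may be technical.

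MicroRNAs are short RNAs cut from a hairpin precursor. They guide a silencing complex to messenger RNAs that pair with the seed, bases 2 to 8 of the mature microRNA. The genes of this cluster arose in primates and are imprinted. Their long primary transcript is made from the paternal copy, mainly in the placenta, and also in some pluripotent cells and tumours. In most adult tissues, lung included, the cluster is mostly silent, with DNA methylation at its promoter. The array features cover the microRNA genes but do not tell the mature microRNA from the hairpin or from the primary transcript.

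All 40 members lie on the plus strand within 93.27 kb (chr19:53669157-53762430, RefSeq, GRCh38.p14). Gaps between neighbours run from 0.74 to 6.04 kb, with a median of 2.14 kb. RefSeq gave mature sequences for 39 members, which came to 51 distinct mature RNAs with 32 seeds. MIR527 is named only. The sequences shown belong to the members on which the heat comparisons turn, with a few other members for contrast. Each is written 5′ to 3′, with the seed in capitals.
miR-520f-3p: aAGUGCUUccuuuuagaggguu
miR-520c-3p: aAAGUGCUuccuuuuagagggu
miR-520d-3p: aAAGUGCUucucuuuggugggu
miR-520e-3p: aAAGUGCUuccuuuuugaggg
miR-519a-3p: aAAGUGCAuccuuuuagagugu
miR-521: aACGCACUucccuuuagagugu
miR-517a-3p: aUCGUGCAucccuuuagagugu
miR-518b: cAAAGCGCuccccuuuagaggu
miR-512-3p: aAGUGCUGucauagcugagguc

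The seed AAGUGCU is carried by 4 members, MIR520A, MIR520C, MIR520D and MIR520E. The seed AAGUGCA is also carried by 4 members, MIR519A1, MIR519A2, MIR519B and MIR519C, and AAAGCGC by 6, all of them MIR518 genes except MIR526A1. On the 5′ arm of the hairpins, 11 members share the seed UCUAGAG. The letters AAGUGC occur near the 5′ end (starting at bases 1 to 5) of a mature RNA in 15 members. This is the core of the seed that the placental and stem cell microRNAs of the miR-302 and miR-372 families use too. The mature miR-520f-3p shares an unbroken run of 21 bases with miR-520c-3p, both 22 bases long. The run starts at base 1 in miR-520f-3p and at base 2 in miR-520c-3p, so the seed is moved by 1 base.

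Values were the authors' log2 RMA values, in which array distributions are equalised and the probes of a feature are combined. The array medians over all features ran from 4.39 to 4.46. The level of a feature depends on its probes as well as on the RNA, so members were not ranked against each other, and levels are given only to place the cluster within the array. Of 14 listed markers of A549 and airway epithelium, 10 were among the named genes, and CDH1, AKR1B10, AKR1C1 and ALDH1A1 were not. Here and in the lists below, measured means named in the platform annotation. A listed gene without a name there may still have a feature on the array. The measured ones do not settle the identity of the line. KRT18, a keratin of simple epithelia, had a mean of 11.51, and the 10 measured markers of A549 and airway epithelium spanned 3.46 to 11.51, with 6 of them under the median of all genes. SFTPC, the surfactant protein of alveolar type II cells, had a mean of 4.42.

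The cluster sat low on every array. The mean over the 6 arrays was below the median of all genes (5.39) for 40 of 40 members, and below the lower quartile (4.09) for 33 of them (82.5%). Of 1032 other microRNA genes, 79.9% lay below that median and 57.8% below that quartile. All genes are here the 14884 named ones. The array medians over all features, named or not, were lower, at 4.39 to 4.46. MIR512-2 and MIR518B, with means of 4.58 and 4.56, lay above those. Member means ran from 1.22 to 4.58, with a median of 2.71, against a median of 3.69 for the other microRNA genes. By array, the median over members was 2.71 in the control, 2.82 after X-rays alone, 2.73 after 41.5 °C, 2.71 after 44 °C, 2.75 after 41.5 °C with X-rays and 2.55 after 44 °C with X-rays. The lowest of these medians was that of 44 °C with X-rays and the highest that of X-rays alone. In the plot of every member on every array, MIR520F was the 1 member above the all-gene median on any array.

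**Figure D1:**
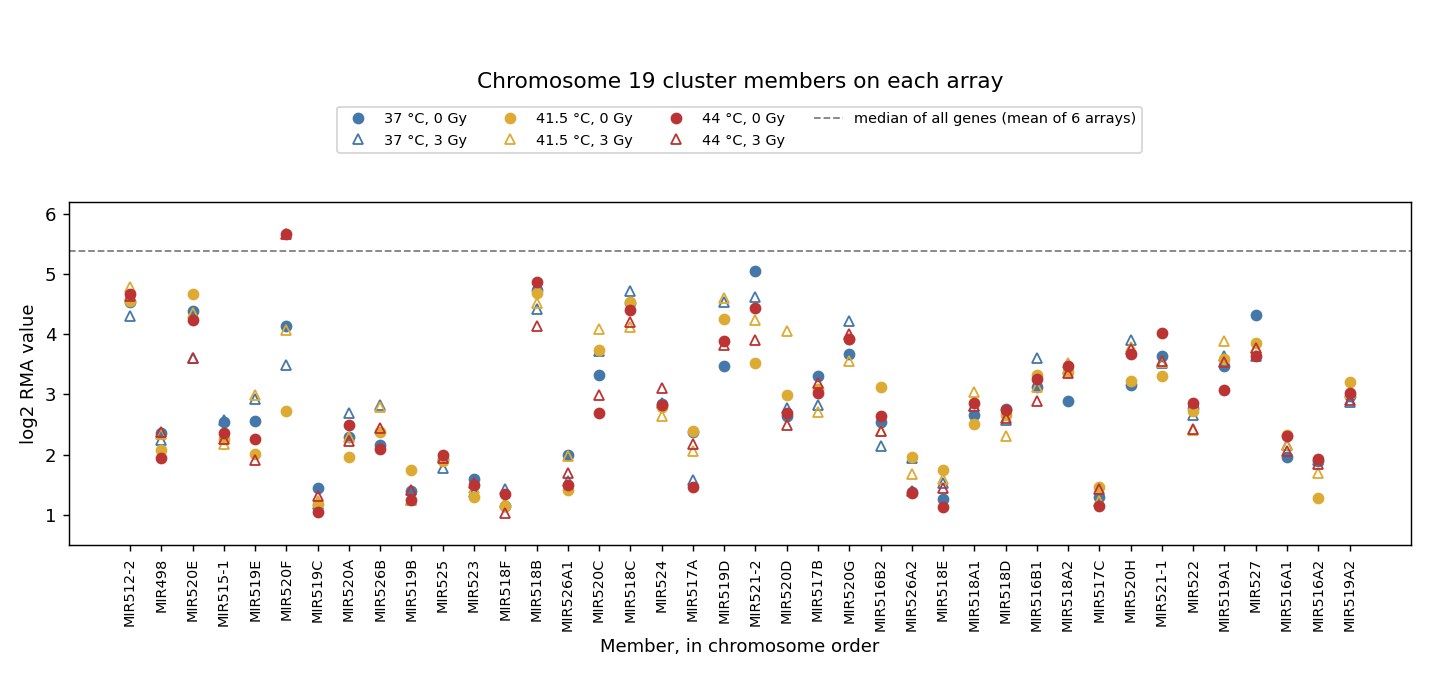
Log2 RMA value of each of the 40 members (x axis, in chromosome order) on each array (points; colour gives the temperature, filled circles 0 Gy, open triangles 3 Gy). The dashed line is the median of all genes at 5.39. Only the MIR520F points at 44 °C, both 5.67, lie above it.

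**Figure D2:**
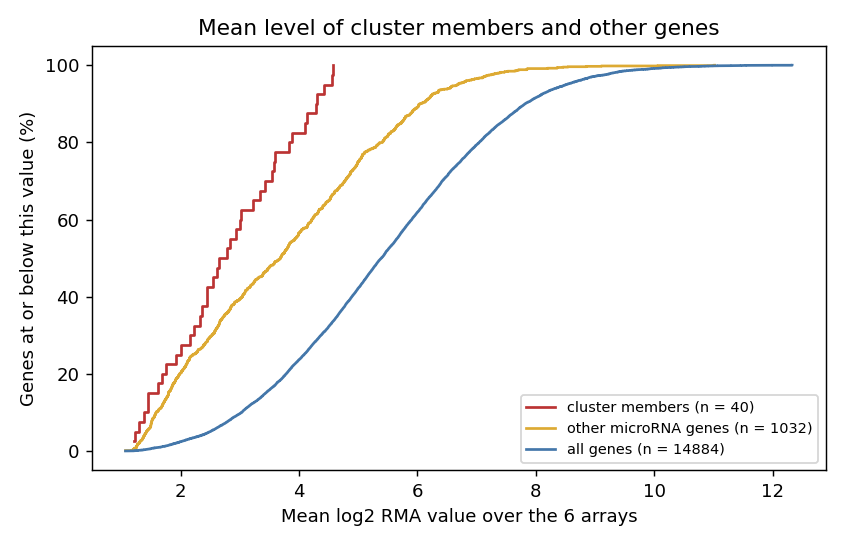
Cumulative percentage of genes (y axis) at or below a given mean log2 RMA value over the 6 arrays (x axis), for the 40 members, 1032 other microRNA genes and all 14884 genes. The members' curve reaches 100% at 4.58, below the all-gene median of 5.39.

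Members varied more between arrays than genes in general, and about as much as other microRNA genes. The median range was 0.63 for members, 0.60 for the other microRNA genes and 0.43 for all genes. The range over the 6 arrays was at least 2-fold for 7 of 40 members (17.5%), against 17.4% of the other microRNA genes and 5.46% of all genes. The 7 were MIR520F, MIR520D, MIR521-2, MIR520C, MIR519D, MIR519E and MIR520E. The next widest range was that of MIR516B2, at 0.98. The fits below were correspondingly less precise for members. The median standard error of a difference between temperatures was 0.20 for members and 0.14 for all genes.

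At 44 °C against 37 °C, MIR520F rose, MIR520C fell and the other 38 members did not pass the test. MIR520F encodes the microRNA shown first above, whose seed is the MIR520C seed moved by 1 base. MIR520C encodes miR-520c-3p, studied as a regulator of cell migration in tumour lines. The comparison used an additive model of temperature and radiation over all 6 arrays, fitted with limma and called at a Benjamini-Hochberg adjusted p under 0.05 over all 14884 genes. It called 2 of 40 members, against 6.11% of all genes (3.57% higher and 2.54% lower) and 7.46% of the other microRNA genes, so the share of members called (5.0%) was near that background. The median difference of members was -0.07, against -0.04 over all genes, and 17 members had a positive and 23 a negative difference.

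MIR520F (chr19:53682159-53682245) stood at 4.13 in the control and 3.49 after X-rays alone. It stood at 2.72 after 41.5 °C and 4.07 after 41.5 °C with X-rays. Both 44 °C arrays, without and with X-rays, gave 5.67. The 44 °C arrays were thus above the other 4 without overlap, while the other 4 were spread widely. Between single arrays, 44 °C exceeded 37 °C by 1.54 without X-rays and by 2.19 with them. In rank among all genes, the feature moved from the 26.1 percentile in the control to the 55.3 and 55.5 percentiles on the 44 °C arrays. The modelled difference was 1.86 ± 0.35 (SE; 3.63-fold), with an adjusted p of 0.012 in limma. It was lost without the array of X-rays alone, where the difference was 1.20 and the adjusted p 0.22. It was also lost without the intensity trend in the variances (adjusted p 0.088) and in a fit over all features of the array (adjusted p 0.10).

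MIR520C (chr19:53707453-53707539) moved the other way. It stood at 3.32 in the control, 3.72 after X-rays, 3.74 after 41.5 °C and 4.10 after 41.5 °C with X-rays. It was at 2.68 after 44 °C and 2.99 after 44 °C with X-rays, the lowest values of the 6. The difference was -0.68 ± 0.16 (SE; 1.60-fold lower; limma adjusted p 0.038). The call was lost without any one of the control, X-ray, 44 °C or combined 44 °C arrays, with adjusted p between 0.15 and 0.23, while the difference stayed between -0.71 and -0.65. It was also lost in a fit over all features (adjusted p 0.098) and with temperature alone in the model (0.086). Among all 40 members, MIR520F alone had both 44 °C arrays above the other 4, a pattern seen in 11.8% of all genes, and MIR520C alone had both below, seen in 18.4%.

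No other member passed. After MIR520F, the highest differences at 44 °C were 0.26 ± 0.20 for MIR518A2 and 0.24 ± 0.16 for MIR512-2. After MIR520C, the lowest were -0.66 ± 0.27 for MIR521-2 and -0.65 ± 0.27 for MIR519E, neither of which passed (limma adjusted p 0.19 and 0.20). Single arrays moved both. MIR519E was at -1.16 without the 44 °C array, where it passed (adjusted p 0.038), and at -0.14 without the combined 44 °C array (adjusted p 0.87). MIR521-2 passed without either 41.5 °C array, at adjusted p of 0.022 and 0.025, but was at -0.40 without the control (0.75) and at -0.32 without the combined 44 °C array (0.67). Without the 44 °C array it was at -1.01 (0.10). The members on both sides of MIR520F showed no such rise. Both lie near the bottom of the array's range, with means of 2.44 for MIR519E and 1.23 for MIR519C. This limits what change could be seen in them. MIR519E, 2.14 kb upstream, stood at 2.56 in the control, 2.26 after 44 °C and 1.91 after 44 °C with X-rays. MIR519C, 4.22 kb downstream, had a difference of -0.12 ± 0.20.

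**Figure D3:**
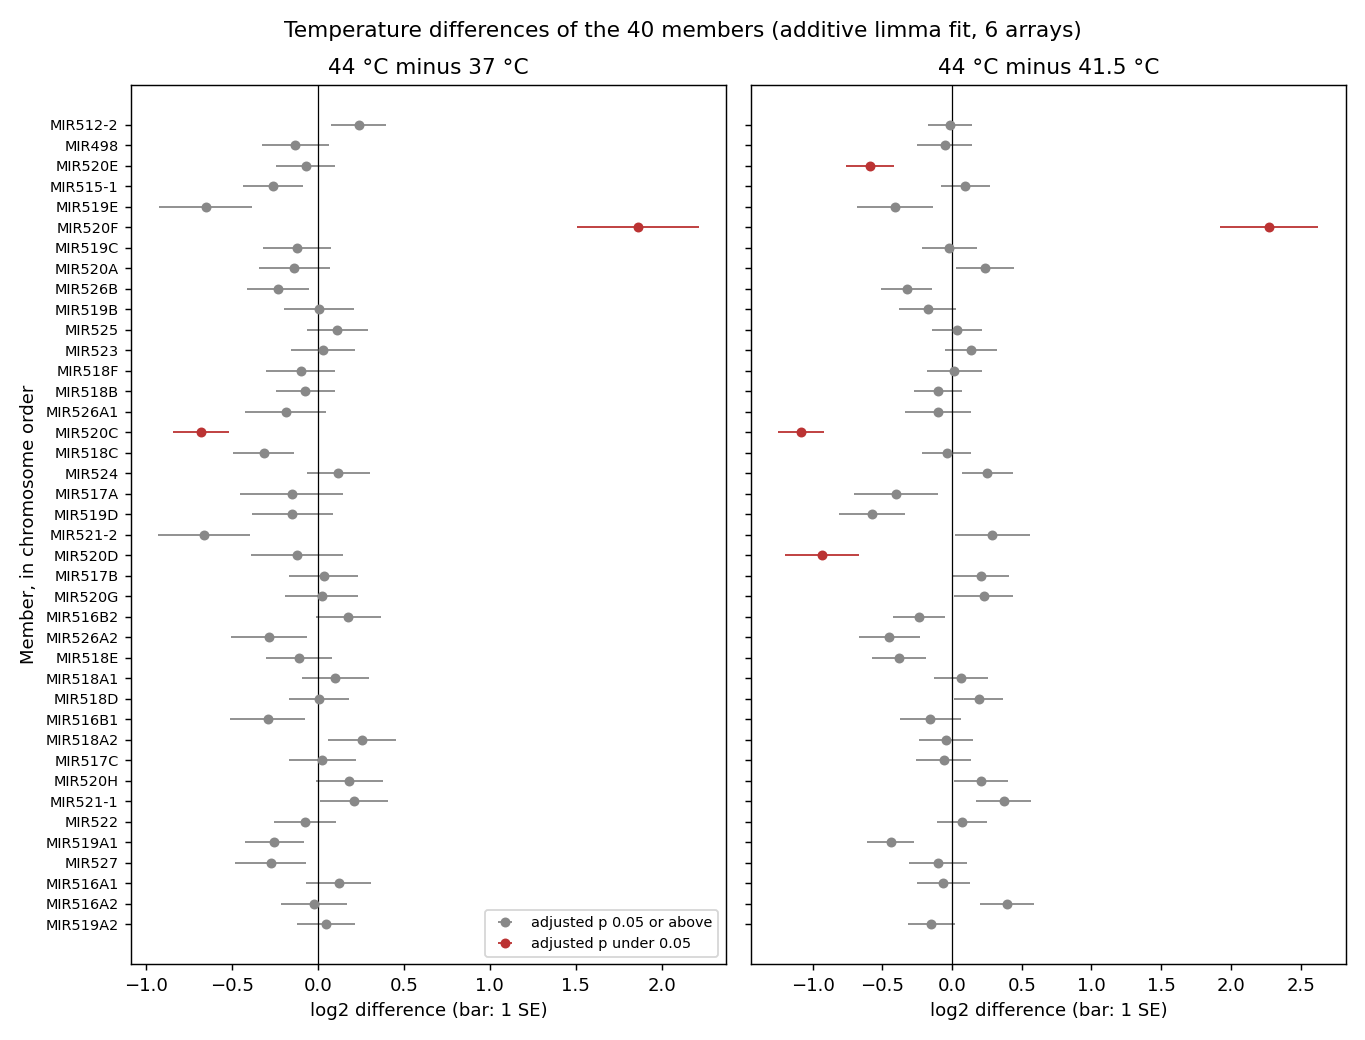
Modelled log2 difference of each member (points; bars 1 SE) for 44 °C minus 37 °C (left) and 44 °C minus 41.5 °C (right), in chromosome order, with members at an adjusted p under 0.05 in red. MIR520F stands at 1.86 and 2.27, and the other called members lie below 0.

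Between the 2 heat doses, 44 °C against 41.5 °C, 4 of 40 members were called, all of them MIR520 genes. MIR520F was higher at 44 °C, and MIR520C, MIR520D and MIR520E were lower. With single arrays left out, members outside the MIR520 genes came in. They were MIR519D without the 44 °C array, MIR521-2 without the combined 41.5 °C array and MIR517A without the combined 44 °C array. The background was 12.1% of all genes (4.9% higher and 7.23% lower) and 9.79% of the other microRNA genes, and the share of members called, 10.0%, lay near both. The median over members was -0.05, against -0.02 over all genes. After MIR520F, the highest differences were 0.40 ± 0.19 for MIR516A2 and 0.37 ± 0.20 for MIR521-1. Neither passed (limma adjusted p 0.24 and 0.28).

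MIR520F differed by 2.27 ± 0.35 (SE; 4.84-fold higher; limma adjusted p 0.0026). The call held when any one array was left out (highest adjusted p 0.011), but its size rested on the low value of the 41.5 °C array. Without that array the difference was 1.44, and without the combined 41.5 °C array it was 3.11. MIR520C differed by -1.08 ± 0.16 (2.12-fold lower; limma adjusted p 0.0022) and kept its call and size when any one array was left out, at -1.11 to -1.05 (highest adjusted p 0.018).

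MIR520D (chr19:53720096-53720182) stood at 2.65 in the control, 2.78 after X-rays, 2.99 after 41.5 °C, 2.69 after 44 °C and 2.48 after 44 °C with X-rays, and at 4.05 after 41.5 °C with X-rays. A single array was therefore more than 1 log2 unit above all others. The difference of -0.93 ± 0.27 passed narrowly (limma adjusted p 0.049), and without the combined 41.5 °C array it was -0.38 with an adjusted p of 0.48. MIR520D also lost its call without the control or the X-ray array (adjusted p 0.11 and 0.10), and without the combined 44 °C array, where it was -0.53.

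MIR520E (chr19:53675711-53675797) stood at 4.39 in the control, 4.67 after 41.5 °C and 4.24 after 44 °C. Its irradiated arrays were at 3.60 with no heat, 4.35 with 41.5 °C and 3.60 with 44 °C. With and without X-rays the 41.5 °C value was the highest of the 3 temperatures, and the irradiated values were lower than the unirradiated ones at each temperature. The difference was -0.59 ± 0.17 (limma adjusted p 0.050 when rounded, under the threshold). It lost its call when any array other than the 41.5 °C array was left out, and was -0.39 without the combined 41.5 °C array. Without the control the adjusted p was 0.078, without the X-ray array 0.074, without the 44 °C array 0.15 and without the combined 44 °C array 0.20.

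The 3 members that fell are 3 of the 4 with the seed AAGUGCU. The other one, MIR520A, had a difference of 0.23 and did not pass, and the median over the 4 was -0.76. Over the 15 members with AAGUGC near the 5′ end, 1 was higher, 3 were lower and the median was -0.17. Over the 7 members with AAGCGC, 0 were called and the median was -0.04. Set against 37 °C, MIR520D and MIR520E were hardly lower at 44 °C, at -0.12 ± 0.27 and -0.07 ± 0.17, neither called. Their differences at 41.5 °C against 37 °C were 0.81 and 0.52, not called either. Of the 3 members, MIR520C alone was called lower at 44 °C against 37 °C. The opposite directions of MIR520F and MIR520C fell on the pair of mature RNAs that share 21 bases, which the sequences above show. These groupings by sequence were made with the values in view and describe the members only.

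**Figure D4:**
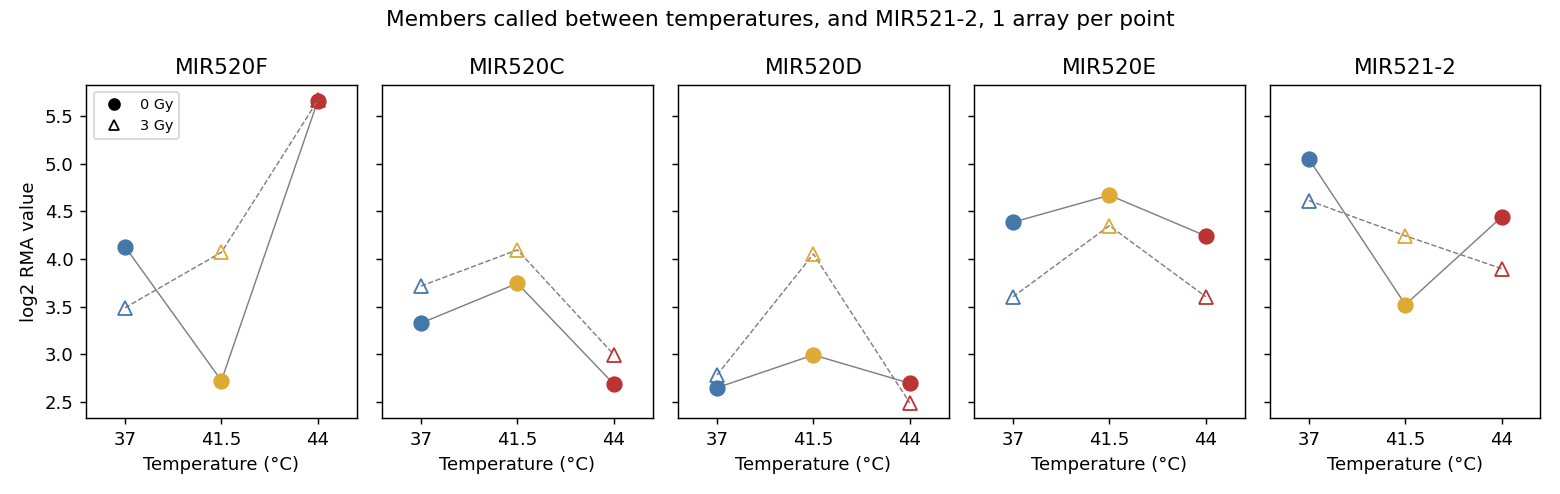
Log2 RMA value (y axis) on each of the 6 arrays against temperature (x axis, °C) for the 4 members called between temperatures and MIR521-2. Filled circles and solid lines are 0 Gy, open triangles and dashed lines 3 Gy. MIR520F reaches 5.67 at 44 °C with and without X-rays, and the 41.5 °C value with X-rays of MIR520D (4.05) stands above its other 5.

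After mild heat, 41.5 °C against 37 °C, no member changed by the test. limma called 0 of 40 members, against 3.29% of all genes (2.18% higher and 1.1% lower). At an unadjusted p under 0.05 there were 4 members (10.0%), against 17.1% of all genes. The median difference was -0.05 over members and -0.004 over all genes. The lowest adjusted p, 0.092, was that of MIR521-2 (chr19:53716594-53716680). It stood at 5.05 in the control and 4.61 after X-rays, at 3.52 after 41.5 °C and 4.24 with X-rays added, and at 4.44 and 3.90 on the 44 °C arrays. Both 37 °C arrays were therefore above the other 4, which was so for 2 of 40 members, this one and MIR515-1, and for 11.5% of all genes. The difference at 41.5 °C was -0.95 ± 0.27, and it passed when either 44 °C array was left out (adjusted p 0.035 and 0.034) or the combined 41.5 °C array was left out (-1.56, adjusted p 0.0034). Without the 41.5 °C array it was -0.34 (adjusted p 0.50). The highest differences were 0.81 ± 0.27 for MIR520D, 0.52 ± 0.17 for MIR520E and 0.42 ± 0.24 for MIR519D, with adjusted p of 0.15, 0.15 and 0.41. MIR520D passed without the 41.5 °C array, which leaves its combined array alone at that temperature (1.36, adjusted p 0.012), and was at 0.26 without that combined array (adjusted p 0.79). Without the combined 41.5 °C array MIR520E was at 0.32. Without the control MIR519D was at -0.0375, and without the X-ray array at 0.89. MIR520F had -0.41 ± 0.35 and MIR516A2 -0.42 ± 0.19, which was -0.20 without the 41.5 °C array and -0.64 without its combined array. MIR520F passed without the combined 41.5 °C array, at -1.25 with an adjusted p of 0.026, and turned positive, with no call, without the control (0.25) or without the 41.5 °C array (0.42).

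After 3 Gy of X-rays, taken over the 3 temperatures, limma called 0 of 40 members and 0.0% of all genes. The lowest adjusted p among members was 0.61. At an unadjusted p under 0.05, which allows for no multiple testing, 8 of 40 members (20.0%) stood out, against 4.92% of all genes and 9.79% of the other microRNA genes. They lay in both directions. MIR526B had 0.48 ± 0.15, MIR520H 0.47 ± 0.16, MIR519D 0.45 ± 0.19, MIR520C 0.35 ± 0.13 and MIR519A1 0.32 ± 0.14. MIR520E had -0.58 ± 0.14, MIR516B2 -0.46 ± 0.15 and MIR518B -0.40 ± 0.14. None of the 8 passed after adjustment. MIR519D was at 0.14 without the control or the X-ray array and at 0.71 without either 44 °C array, and MIR518B at -0.24 without either 44 °C array. The median over members was -0.003.

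MIR520E was lower with X-rays at each temperature, with differences of -0.79 at 37 °C, -0.32 at 41.5 °C and -0.64 at 44 °C, each of them 1 array against 1 with no replicate check. At least 2-fold between such single arrays were 1 of 40 members at 37 °C, against 0.269% of all genes and 1.36% of the other microRNA genes, 2 of 40 at 41.5 °C, against 0.49% and 2.71%, and 0 of 40 at 44 °C, against 0.121% and 0.678%. At 37 °C the member was MIR519D, whose mature RNA has been studied as a brake on cell migration. It was at 3.47 in the control and 4.54 after X-rays. At 41.5 °C the members were MIR520F, with 2.72 and 4.07, and MIR520D, with 2.99 and 4.05. At the other temperatures the same members moved less or the other way: MIR520F differed by -0.64 at 37 °C and by 0.005 at 44 °C, and MIR519D by -0.06 at 44 °C. MIR516B2 was at 2.55 in the control and 2.14 after X-rays, at 3.12 and 2.39 at 41.5 °C, and at 2.65 and 2.39 at 44 °C, lower with X-rays each time.

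**Figure D5:**
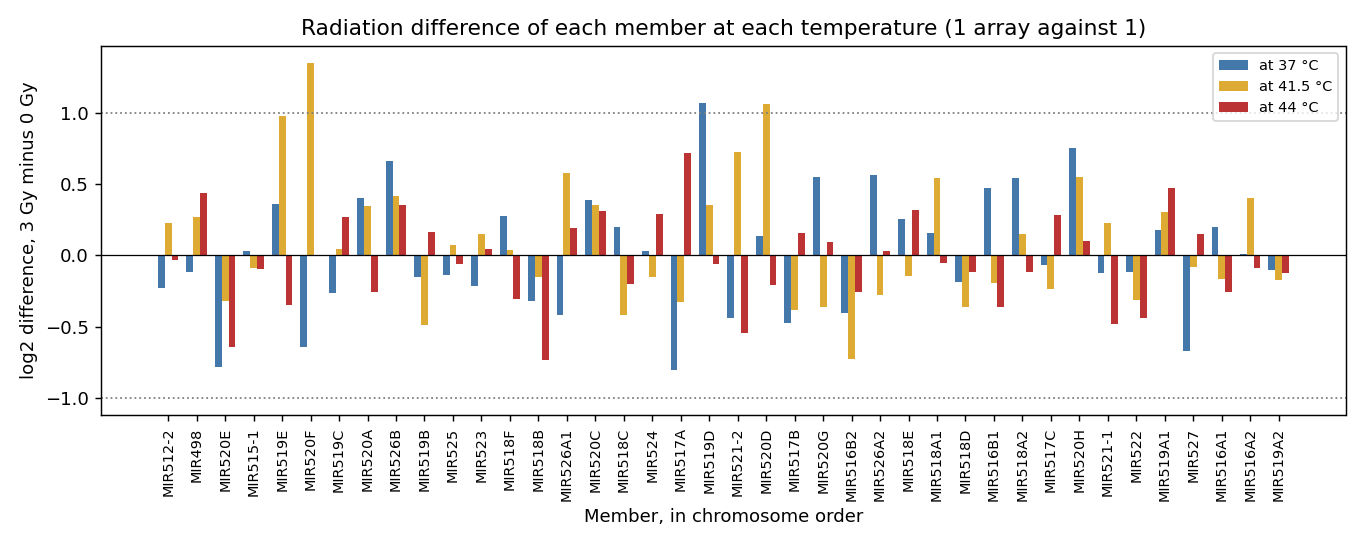
Log2 difference of the 3 Gy array minus the 0 Gy array (y axis) at 37, 41.5 and 44 °C for each member (x axis, in chromosome order), 1 array against 1. Dotted lines mark a 2-fold difference, which MIR519D passes at 37 °C and MIR520F and MIR520D pass at 41.5 °C.

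Some members are near-copies of each other. RefSeq gave hairpins for 37 members, the exceptions being MIR498, MIR520F and MIR517A. Over the 666 pairs the hairpin identity had a median of 78.0% and ran from 48.6% to 98.9%. MIR521-2 and MIR521-1, at 95.4% identity, encode the same mature miR-521. At 44 °C against 37 °C they differed by -0.66 and 0.21, and at 41.5 °C by -0.95 and -0.16. MIR516A1 and MIR516A2, at 98.9%, had 0.12 and -0.02 at 44 °C, and 0.18 and -0.42 at 41.5 °C. MIR520G and MIR520H, at 96.7%, had 0.02 and 0.18 at 44 °C. MIR518A1 and MIR518A2, also at 95.4%, had 0.10 and 0.26. MIR519A1 and MIR519A2, at 94.3%, had -0.25 and 0.05. MIR516B2 and MIR516B1, at 91.1%, had 0.18 and -0.29. The pairs were chosen, and the called members are in 0 of them. Called members have close relatives too, since miR-520c-3p shares 21 bases with miR-520f-3p and 20 with miR-526b-3p. Within the chosen pairs, differences at 44 °C lay on the same side of 0 for MIR520G with MIR520H and for the MIR518A pair. They lay on opposite sides in the other 4, where some differences were smaller than their SE. Examples are -0.02 ± 0.19 for MIR516A2 and 0.05 ± 0.17 for MIR519A2. Less alike were MIR526A1 with MIR526A2 and MIR517B with MIR517C, at 68.2% and 69.5% identity. Each of these pairs lay on the same side at 44 °C. Features of near-copies can share probe signal, so a value of one of them is uncertain as a value of that gene. Whether this holds for the called members was not tested. Within a gene, MIR512-2 and MIR515-1 each had 2 features with identical values. MIR519A2 had 2 features that differed, one at 2.87 to 3.20 over the 6 arrays and the other, not used, at 2.16 to 3.41.

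The hairpins of the members held 39.3% to 54.1% G and C, with a median of 44.7%, and those of the other microRNA genes a median of 48.7%. Across 37 members the mean level and this share had a Pearson r of 0.24 and a Spearman rho of 0.19. Across 847 other microRNA genes the values were 0.66 and 0.67. These describe features that share the same 6 arrays and are not independent replicates, so no p is given. Any part of base composition in the levels was not tested. Level followed position along the cluster no more closely (rho 0.05 over 40 members).

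MicroRNA genes related to the cluster were few, so that counts of calls among them say little beside the backgrounds given above (6.11%, 3.29% and 12.1% of all genes). Of 4 listed genes of the neighbouring stem cell group, 3 were measured and 0 were called in any comparison. At 44 °C, MIR372 had 0.35 ± 0.20 and MIR373 -0.19 ± 0.16. Of 12 listed genes elsewhere, from the MIR302 and MIR17 groups, 10 were measured and 0 called, from 0.33 ± 0.16 for MIR302D to -0.29 ± 0.18 for MIR20B. Their seeds were not compared with those of the members. MIR1323, MIR1283-1 and MIR1283-2 lie in the cluster but outside the naming rule. They had means of 3.97, 1.68 and 1.87, and 0 of 3 were called.

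Genes that act in the making or the work of microRNAs were measured through 7 of 15 listed, DROSHA and DICER1 not among them. Of the 7, 1 fell and 0 rose at 44 °C against 37 °C, where 6.11% of all genes were called. Against 41.5 °C it was again 1 and 0, beside 12.1% of all genes. Counts of so few genes say little. DGCR8, the RNA-binding partner of DROSHA that recognises the primary hairpin, differed by -0.55 ± 0.12 against 37 °C and by -0.85 ± 0.12 against 41.5 °C (limma adjusted p 0.027 and 0.0017). At 44 °C against 37 °C the list ran up to TARBP2, a partner of DICER1, at 0.35 ± 0.12 (adjusted p 0.12). Of DNA methylation genes, 9 of 10 were measured. Their calls stand beside the same shares, and beside 3.29% of all genes at 41.5 °C against 37 °C. DNMT3A, a de novo methyltransferase, fell at both temperatures, by 0.53 at 44 °C and 0.67 at 41.5 °C (limma adjusted p 0.039 and 0.021), and 0 of the 9 rose in any comparison. Against 41.5 °C, DNMT3B and UHRF1, which guides maintenance methylation, fell at 44 °C by 0.54 and 0.32 (adjusted p 0.016 and 0.040). At 44 °C the highest of the list was TET2, which oxidises methylated cytosine, at 0.22 ± 0.11, and it did not pass.

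A list of 15 genes reported elsewhere as targets of cluster microRNAs, not tested here as targets, had 6 measured members. Of these, 2 were called at 44 °C and 2 at 41.5 °C against 37 °C, beside 6.11% and 3.29% of all genes. At 44 °C against 41.5 °C, 1 was higher and 2 were lower, beside 12.1% of all genes. Counts among 6 genes say little. MCL1, a survival protein of the BCL2 family, rose at 44 °C by 1.22 ± 0.08 and MICB, a stress ligand of natural killer cells, by 0.70 ± 0.08. RELA, a subunit of NF-kappaB, was lowest at -0.11 ± 0.10 and did not pass, but fell against 41.5 °C by 0.44 (adjusted p 0.018). At 41.5 °C, MICB rose by 1.25 ± 0.08 and MICA by 0.46 ± 0.10. Between the temperatures MCL1 was higher at 44 °C by 0.91 and MICB lower, at -0.55.

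Markers of cells in which the cluster is usually active were mostly low. For the counts below, 6.11% of all genes were called at 44 °C against 37 °C. The shares were 3.29% at 41.5 °C against 37 °C and 12.1% at 44 °C against 41.5 °C. The marker lists are short, so counts of calls in them say little. Of 27 trophoblast markers 12 were measured, 9 of them under the all-gene median. Their summed level (the log2 of their summed linear values) stayed between 8.78 and 8.98 over the arrays. Such a sum gives most weight to the brightest markers of a list and says little of the dim ones. INSL4, a placental insulin-like hormone, had the highest mean, at 7.69. It stood at 7.54 in the control and 7.55 after 44 °C, and was not called. At 44 °C against 37 °C, 0 of the 12 were called, from 0.45 ± 0.18 for PSG3 to -0.44 ± 0.26 for PSG1, a pregnancy-specific glycoprotein with a mean of 1.75. PSG1 was lower at 44 °C than at 41.5 °C, at -1.19 ± 0.26 (limma adjusted p 0.015). Of 9 pluripotency markers 8 were measured, 7 of them under the median, and 0 were called in any comparison. At 44 °C they ran from -0.60 ± 0.20 for NANOG, a pluripotency factor with a mean of 1.78, to 0.23 ± 0.23 for DPPA4, and the summed level ran from 7.29 to 7.43. Of the other cell types, leukocyte markers were measured through 2 of 5 genes. CD68, a lysosomal protein, rose at 44 °C by 0.68 ± 0.08, and against 41.5 °C both CD68, at 0.56, and CD14, a receptor for bacterial lipopolysaccharide, at 0.77, were higher. CD14 had 0.38 ± 0.13 at 44 °C against 37 °C and did not pass. Their summed level ran from 8.57 to 9.28. Fibroblast (2 of 5) and endothelial markers (3 of 5) were all under the median, with 0 called. At 44 °C they ran from -0.25 for LUM to -0.19 for DCN, and from 0.07 for KDR to 0.22 for PECAM1, with summed levels of 3.25 to 3.78 and 5.10 to 5.38. Epithelial markers differed between 44 °C and 41.5 °C in 2 of 10, EPCAM at 0.45 and KRT7 at -0.40, beside 12.1% of all genes. Their summed level, weighted toward KRT18 with its mean of 11.51, ran from 11.67 to 11.78. At 44 °C against 37 °C 0 of the 10 were called, from -0.25 for KRT8 to 0.35 for EPCAM. The part of any of these markers in the values of the cluster was not tested.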

How the data were processed

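Total RNA of A549 cells (300 ng per sample, per the labels' protocols) was labelled after random priming. Per the submitters' processing notes, the authors read the arrays with Affymetrix Expression Console 1.1 and summarised them by RMA; the deposited values are log2. Of 53617 features, 16098 (30.0%) carry 1 gene symbol in the platform annotation. The feature with the highest mean stood for each of 14884 genes. For the probes' genome build, none is given in these sources; coordinates and sequences are RefSeq's, GRCh38.p14.

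With 1 array per group, tests came from an additive limma model (limma 3.58.1, R 4.3.3) of temperature as a factor plus radiation, with an intensity trend, two-sided, adjusted by Benjamini-Hochberg over all genes. Noise and any heat-by-radiation interaction share its 2 residual degrees of freedom, and the median residual SD was 0.113. limma draws each gene's variance toward that of genes at a similar level, with a median prior of 8.06 degrees of freedom. The p-values thus rest largely on other genes. The number of arrays limits precision.

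The members and lists were chosen with earlier results of these data known. Named members are those called, the 8 of widest range and the 3 highest and 3 lowest differences per comparison (the planned naming of the 5 highest and 5 lowest means was dropped, since levels of different probes have no order); of the other lists, called genes and the highest and lowest difference at 44 °C. Other microRNA genes are those of RefSeq type miRNA, narrower than the planned symbol pattern. Non-overlap counts, sequence groupings, near-identical pairs and the 3 microRNA genes outside the rule were added after seeing values. A planned reference set of olfactory receptor genes had 0 named genes. Alternatives were the variance trend, scaling, choice of feature, a filter on dim genes, the model's terms and leaving out each array.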

Additional observations from a re-analysis of the deposited data

How the results depend on the processing

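No paired analysis was possible because each group holds 1 array and the labels carry no replicate numbers. The number of members called at 44 °C against 37 °C, 2 as reported, was 1 without the intensity trend, 0 in a fit over all features, 1 without genes under the lower quartile of mean level (which leaves 7 members, MIR520F among them only through its 44 °C arrays, since its mean over the other 4 is 3.60, so that this filter depends on the change tested) and 1 with temperature alone in the model, and ran from 0 to 3 when 1 array was left out. For 44 °C against 41.5 °C, 4 as reported, it was 2 under each of these alternatives and ran from 2 to 4. MIR520D, called in that comparison as reported, also lost its call without the trend (adjusted p 0.12), after a further quantile normalization (0.061), over all features (0.19) and with temperature alone (0.070), and MIR520E without the trend (0.070), over all features (0.15) and with temperature alone (0.22). For 41.5 °C against 37 °C it ran from 0 to 2, and for radiation it was 0 each time. Median centring, a further quantile normalization and averaging the features of a gene moved none of the 4 counts by over 1.5 times. Of the 24 differences of named members followed with 1 array left out, 3 that had not passed changed sign. At 44 °C against 37 °C, MIR518A2 ran from -0.0066 to 0.52. At 41.5 °C against 37 °C, MIR519D ran from -0.0375 to 0.89 and MIR520F from -1.25 to 0.42. The other members were refitted too, but their differences were not followed here. Medians over members moved by less than the members' median standard error, used because there are no replicates. Causes were not tested. Most members lie near the bottom of the array's range, which limits what small changes can be seen.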
